A study of Mus musculus with 4 samples.

Results

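Regulatory T cells that carried Klrg1 transcript but no transcript of Il10 or Gzmb were examined in a single-cell RNA table of mouse colon CD4 T cells. A cell was a member when it held at least 1 count of Foxp3, at least 1 count of Klrg1, 0 counts of Il10 and 0 counts of Gzmb. Of 1050 cells kept after quality filters, 332 held Foxp3, and 57 of these were members. The members made up 17.2% of the cells with Foxp3 (exact binomial 95% interval 13.3 to 21.7) and 5.43% of all kept cells (4.14 to 6.98). A total of 144 cells held both Foxp3 and Klrg1, so 39.6% of those lacked both effector transcripts. The members were chosen from their own counts, and Foxp3, Klrg1, Il10 and Gzmb are therefore no result. The intervals cover counting error only.

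The cells came from colon lamina propria, the connective tissue under the gut epithelium, of male B6 mice aged 6 weeks. Tissue was digested with collagenase and dispase, and CD45+ TCRb+ CD4+ cells were sorted and profiled by inDrops, a droplet method that captures polyadenylated RNA beside a cell barcode. The labels give 4 samples of 1 group, Btheta_colon, with no other treatment, genotype or control group stated. The 1985 barcodes of the table name no sample, so all 4 were handled as 1 sample: values have no spread between animals and no p-value.

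KLRG1 is an inhibitory receptor of the C-type lectin family that binds cadherins. On regulatory T cells, which hold back immune responses and depend on the transcription factor FOXP3, it marks an effector state that is common in mucosal tissue. In the gut, regulatory T cells are often divided into a GATA3 and Helios positive kind, which can carry the IL-33 receptor ST2 and secrete the tissue repair factor amphiregulin, and a RORgt and MAF positive kind induced by gut microbes. IL-10, a cytokine, and granzyme B, a serine protease, are effector molecules of such cells.

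The 57 members held 88674 counts in all, with 600 to 3339 counts per cell and a median of 1396. The 275 other Foxp3+ cells had a median of 1304 counts, and they fell into 3 kinds by the same transcripts. A total of 87 held Klrg1 with Il10 or Gzmb (median 1697 counts), 84 held none of Klrg1, Il10 and Gzmb (median 1156), and 104 lacked Klrg1 but held Il10 or Gzmb (median 1211.5). Since a transcript is missed more easily in a shallow cell, a missing count is not absence of the transcript. Median mitochondrial content was 4.44% in the members and 4.12% in the other Foxp3+ cells, and ribosomal genes took 16.6% and 15.9% of their counts.

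The regulatory T cell label was set beside some markers that the selection did not use. Other markers given below, such as Il2ra and Ikzf4, were sparser. Among cells without Foxp3, Il10 and Gzmb, 13 of 17 core regulatory T cell genes were also higher with Klrg1. These markers alone therefore do not set the members apart from other Klrg1+ cells. The members carried Ctla4, an inhibitory receptor of these cells, in 43 of 57 cells and Icos, a costimulatory receptor, in 47 of 57. Ikzf2, which encodes Helios, was found in 36 of 57 members but in 3.77% of 53 cells that lacked Foxp3 and held naive T cell genes (median 1318 counts). Some of these naive-like cells may express Ikzf2 themselves, so free RNA was not measured on its own. Tnfrsf4 was found in 77.2% of members and in none of those 53 naive-like cells, which allows up to 5.66% of such cells to hold a count at this depth and sets no limit on the share that express it. All 11 T cell genes of a fixed list were detected, and 56 of 57 members held at least 1 of them. Of 12 genes of CD8, gamma delta, innate lymphoid or natural killer cells, 8 were at 0 in the members. The same held for 5 of 6 B or plasma cell genes, 8 of 9 epithelial genes, 3 of 6 stromal or endothelial genes and every erythroid and mast cell gene. Of 9 myeloid genes, Lyz2, H2-Eb1, C1qa and Itgax were at 0. The myeloid list summed to 632 CPM in the members, 423 in Klrg1+ cells with Il10 or Gzmb, 462 in cells with none of the 3 transcripts and 271 in cells with Il10 or Gzmb alone. At least 1 count of the list was found in 23 of 57 members (40.4%) and in 30.5% of all other Foxp3+ cells. Cst3, which encodes the protease inhibitor cystatin C, gave 41 of the 56 myeloid list counts in the members. Both measured genes of the list were higher than in all other Foxp3+ cells, Cst3 with a log2 ratio of 0.62 (0.08 to 1.14) and H2-Aa, a chain of MHC class II, with 1.46 (−0.0031 to 2.81) from 8 counts in 3 members. The part of such RNA in the ratios was not tested.

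Levels are given as CPM, the counts of a gene per 1000000 counts pooled over all cells of a kind. Ratios are log2 ratios of these levels, members over the reference, each with an exact 95% counting interval. A gene counted as measured with at least 20 counts over both sides, and as higher or lower at 1.5-fold or more. This threshold is one of size and not a test.

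Against all 275 other Foxp3+ cells, the members held more transcript of a GATA3 and ST2 tissue program and of several TNF receptor family members, and less transcript of killer cell type effector, lipid synthesis and cell cycle genes. Of 4146 genes measured, 17.7% were at least 1.5-fold higher in the members and 25.6% at least 1.5-fold lower, with a median log2 ratio of −0.08. The tissue program list had 8 of 19 measured genes higher and 1 lower, with a median of 0.54. The TNF receptor superfamily list had 6 of 11 higher and none lower, with a median of 0.59. The median of the TNF receptor list was 0.08 with cells thinned to 500 counts, 0.19 when members held at least 2 counts of Klrg1 and 0.26 in cells with at least 800 counts. The list of natural killer receptors and terminal effector genes had none of 13 higher and 7 lower, with a median of −0.79. That median was −0.30 when members could hold up to 1 count of Il10 and of Gzmb, and −0.49 with each gene counted at most once per cell. The members were chosen to lack Gzmb and the reference includes cells that hold it, so this list is not independent of the selection.

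**Figure D1:**
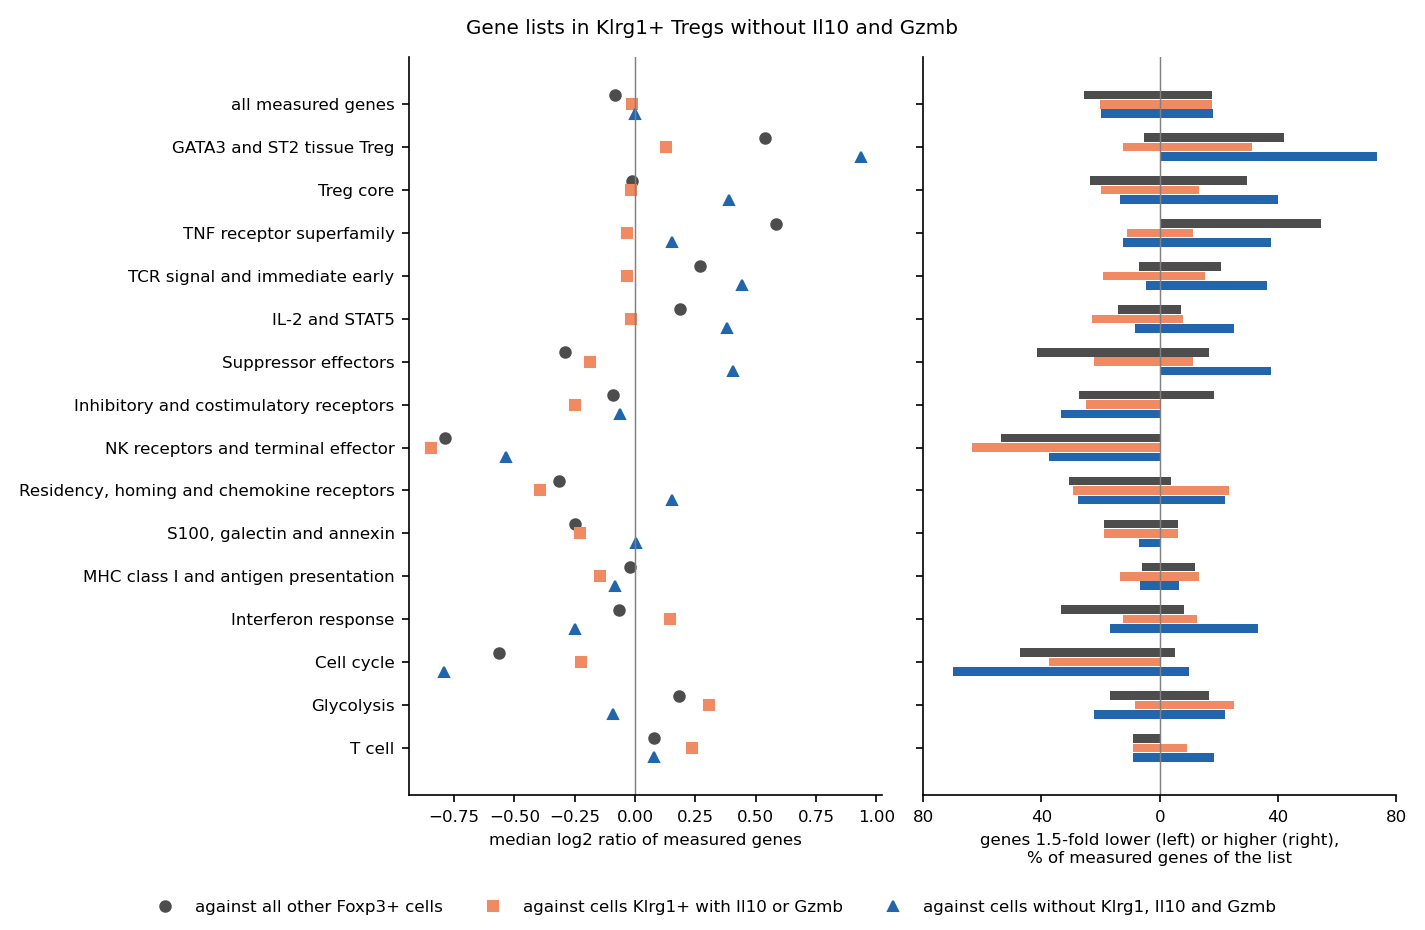
Gene lists in the members. The left panel gives the median log2 ratio of the measured genes of each list against all other Foxp3+ cells (circles), Klrg1+ cells with Il10 or Gzmb (squares) and cells without Klrg1, Il10 and Gzmb (triangles); the right panel gives the percent of measured genes at least 1.5-fold lower (left bars) or higher (right bars). The tissue program list reaches a median of 0.94 against cells without the 3 transcripts and 0.13 against Klrg1+ cells with Il10 or Gzmb, and the list of natural killer receptors and terminal effectors is below 0 in each comparison.

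Among transcription factors of the tissue program, Gata3 stood at 2301 CPM in the members, 2390 in Klrg1+ cells with Il10 or Gzmb, 1219 in cells with none of the 3 transcripts and 1039 in cells with Il10 or Gzmb alone. Both kinds of Klrg1+ cell were thus high, and their intervals overlapped. GATA3 is the master factor of type 2 helper cells and is also used by tissue regulatory T cells. Gata3 lies on chromosome 2 (chr2:9857078-9890034, minus strand, mm10, GENCODE vM21). The members exceeded all other Foxp3+ cells in Gata3 by 0.54 (0.30 to 0.77) and cells with none of the 3 transcripts by 0.92 (0.60 to 1.23), while the ratio to Klrg1+ cells with Il10 or Gzmb was −0.06 (−0.31 to 0.19). The share of cells with Gata3 was 75.4% in the members, 75.9%, 45.2% and 51.9% in the other kinds in the same order, and 18.9% in the naive-like cells. After each cell was thinned to 500 counts, these shares were 52.6%, 55.2%, 32.1%, 29.8% and 15.1%.

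Ikzf2 was also higher in both kinds of Klrg1+ cell, with 1150 CPM in the members, 1154 in Klrg1+ cells with Il10 or Gzmb, 547 in cells with none of the 3 transcripts and 702 in cells with Il10 or Gzmb alone. The log2 ratio of Ikzf2 was 0.48 (0.15 to 0.80) against all other Foxp3+ cells and 1.07 (0.61 to 1.55) against cells with none of the 3 transcripts. Rora encodes a nuclear receptor that is active in tissue regulatory T cells and innate lymphoid cells. Its level was 665 CPM in the members, 295 in Klrg1+ cells with Il10 or Gzmb, 336 in cells with none of the 3 transcripts and 291 in cells with Il10 or Gzmb alone. Rora was therefore higher in the members than in each other kind, with log2 ratios of 1.17 (0.59 to 1.76), 0.98 (0.38 to 1.60) and, over all other Foxp3+ cells, 1.12 (0.66 to 1.58). With each gene counted at most once per cell, the ratio of Rora to Klrg1+ cells with Il10 or Gzmb was 0.56.

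Ikzf4 encodes Eos, a partner of FOXP3 from the same Ikaros family as Helios. It stood at 214 CPM in the members, 44.9 in Klrg1+ cells with Il10 or Gzmb, 168 in cells with none of the 3 transcripts and 39.7 in cells with Il10 or Gzmb alone. The level of Ikzf4 was thus low in both kinds that held Il10 or Gzmb. The ratio of Ikzf4 was 2.26 (0.94 to 3.75) against Klrg1+ cells with Il10 or Gzmb and 0.35 (−0.64 to 1.33) against cells with none of the 3 transcripts, and it rested on 19 counts in 10 members. When members were required to hold at least 2 counts of Klrg1, the first of these ratios was 1.04 and the second −0.52.

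Genes for secreted and surface proteins of the tissue program were sparse. Areg, which encodes amphiregulin, stood at 237 CPM in the members, 244 in Klrg1+ cells with Il10 or Gzmb, 42.0 in cells with none of the 3 transcripts and 146 in cells with Il10 or Gzmb alone. Areg was found in 15 of 57 members and in 3 of the 84 cells with none of the 3 transcripts, a log2 ratio of 2.49 (1.05 to 4.26). Against all other Foxp3+ cells its ratio of 0.63 (−0.15 to 1.36) did not leave out 0. Il1rl1, which encodes ST2, stood at 203 CPM in the members and at 128, 75.7 and 6.62 in the other kinds in the same order. It rested on 18 counts in 9 members.

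Penk encodes proenkephalin, the precursor of opioid peptides. Its level was 417 CPM in the members, 436 in Klrg1+ cells with Il10 or Gzmb, 50.5 in cells with none of the 3 transcripts and 66.2 in cells with Il10 or Gzmb alone. Penk was thus high in both kinds with Klrg1, though in few cells: 10 of 57 members and 9 of 87. In the Klrg1+ cells with Il10 or Gzmb, 1 cell held 29 of the 68 Penk counts. Without the top cell of each side, the ratio of Penk between those kinds moved from −0.06 to 0.39. Cpm, which encodes the membrane enzyme carboxypeptidase M, was at 248 CPM in the members against 96.1, 25.2 and 106 in the other kinds, with 22 counts in 10 members.

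**Figure D2:**
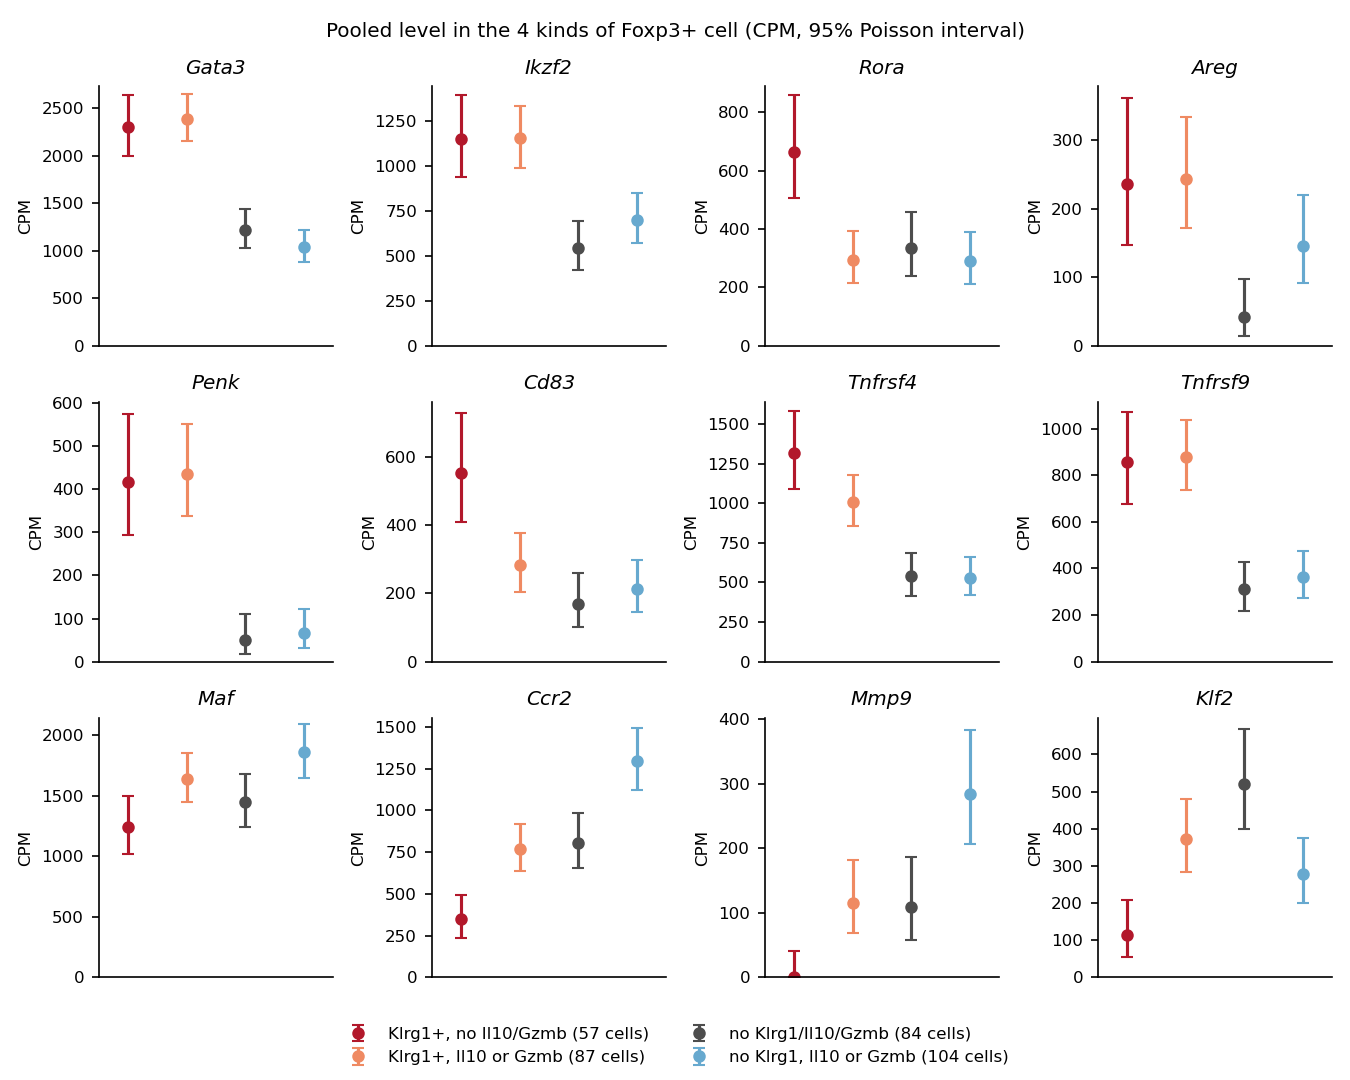
Pooled level of 12 genes in the 4 kinds of Foxp3+ cell. The vertical axes give CPM from 0, each point is the pooled level of a kind of cell and each bar its exact 95% Poisson interval. Gata3, Ikzf2, Penk and Tnfrsf9 are high in both kinds with Klrg1, Rora and Cd83 are highest in the members, and Ccr2, Mmp9 and Klf2 are lowest there.

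Costimulatory receptors of the TNF receptor family were among the more abundant genes that differed. Tnfrsf4, which encodes OX40, stood at 1319 CPM in the members, 1006 in Klrg1+ cells with Il10 or Gzmb, 538 in cells with none of the 3 transcripts and 530 in cells with Il10 or Gzmb alone. It was found in 44 of 57 members (77.2%), against 50.2% of all other Foxp3+ cells, and in 47.4% against 20.7% after thinning to 500 counts. The log2 ratio of Tnfrsf4 was 0.90 (0.58 to 1.21) against all other Foxp3+ cells, 1.29 (0.84 to 1.76) against cells with none of the 3 transcripts and 0.39 (0.03 to 0.75) against Klrg1+ cells with Il10 or Gzmb. Pooled Tnfrsf4 was 1863 CPM in members at or below their median depth and 1048 CPM in deeper members. The latter is near the 1006 CPM of Klrg1+ cells with Il10 or Gzmb, the kind with the largest median depth. The part of depth in these ratios was not tested.

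Tnfrsf18, the gene of GITR, stood at 1421 CPM in the members and at 1160, 689.5 and 828 in the other kinds in the same order, a ratio of 0.64 (0.34 to 0.94) to all other Foxp3+ cells. Tnfrsf9, the gene of CD137, stood at 857 CPM in the members and at 878, 311 and 364, so that it matched the Klrg1+ cells with Il10 or Gzmb within counting error. The TNF family ratios were not uniform: Tnfrsf1b, the gene of TNF receptor type II, had a ratio of −0.57 (−1.22 to 0.03) to all other Foxp3+ cells. Cd83, a surface protein of activated lymphocytes, stood at 553 CPM in the members and at 282, 168 and 212 in the other kinds. It was found in 36.8% of members and 14.9% of all other Foxp3+ cells, with ratios of 1.29 (0.77 to 1.81) to those, 0.97 (0.35 to 1.59) to Klrg1+ cells with Il10 or Gzmb and 1.72 (0.94 to 2.54) to cells with none of the 3 transcripts.

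The core regulatory T cell genes showed no common direction against all other Foxp3+ cells: 5 of 17 measured genes were higher and 4 lower, with a median of −0.01. Ctla4 had a ratio of −0.09 (−0.35 to 0.15) and Icos of 0.06 (−0.18 to 0.30). Il2ra, the gene of the high-affinity IL-2 receptor chain, stood at 248 CPM in the members, 410 in Klrg1+ cells with Il10 or Gzmb, 143 in cells with none of the 3 transcripts and 331 in cells with Il10 or Gzmb alone. Il2rb, the signalling chain of that receptor, was at 113 CPM in the members and at 224, 294 and 192 in the other kinds, a ratio of −1.04 (−2.15 to −0.10) to all of them. Glrx, which encodes the redox enzyme glutaredoxin, was also low, with 13 counts in 9 members and a ratio of −1.53 (−2.46 to −0.72). Of the genes of suppressor molecules, 2 of 12 were higher and 5 lower. Ebi3, the shared subunit of IL-27 and IL-35, had a ratio of 1.43 (0.51 to 2.31), with 18 counts in 13 members.

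Of genes of residency, homing and chemokine receptors, 8 of 26 were lower and 1 higher, with a median of −0.31, beside 25.6% lower among all measured genes. Ccr2, the receptor for the chemokine CCL2 that guides cells into inflamed tissue, stood at 350 CPM in the members, 769 in Klrg1+ cells with Il10 or Gzmb, 807 in cells with none of the 3 transcripts and 1298 in cells with Il10 or Gzmb alone. It was found in 31.6% of members against 57.5% of all other Foxp3+ cells, or 17.5% against 36.0% after thinning. The ratios of Ccr2 were −1.47 (−2.04 to −0.94) to all other Foxp3+ cells, −1.14 (−1.76 to −0.56) to Klrg1+ cells with Il10 or Gzmb and −1.21 (−1.84 to −0.61) to cells with none of the 3 transcripts. In the same order, these ratios of Ccr2 were −0.66, −0.39 and −0.40 with thinned cells and −1.17, −0.73 and −0.98 with each cell weighted equally.

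Klf2, a transcription factor that drives exit from tissue, was found in 5 of 57 members. Its level was 113 CPM in the members, 372 in Klrg1+ cells with Il10 or Gzmb, 521 in cells with none of the 3 transcripts and 278 in cells with Il10 or Gzmb alone. The ratio of Klf2 to all other Foxp3+ cells was −1.75 (−2.84 to −0.84), and −0.94 when cells with up to 1 count of Il10 and of Gzmb were taken as members. Gpr183, a receptor for oxysterols that positions lymphocytes, had a ratio of −1.53 (−2.57 to −0.65), with 11 counts in 8 members. Ccr4, a chemokine receptor, had a ratio of −1.11 (−2.22 to −0.18). The only gene of this list at least 1.5-fold higher was Itga4, an integrin chain of gut homing, at 338 CPM in the members and 185 in all other Foxp3+ cells.

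Mmp9, which encodes a secreted protease that cuts extracellular matrix, had no count in any of the 57 members. This allows up to 5.26% of such cells to hold a count at this depth and sets no limit on the share of cells that express the gene. It held 74 counts in 44 of the 275 other Foxp3+ cells, with 115 CPM in Klrg1+ cells with Il10 or Gzmb, 109 in cells with none of the 3 transcripts and 285 in cells with Il10 or Gzmb alone. With the members set to a floor of 3 counts, Mmp9 was at least 5.13-fold lower than in all other Foxp3+ cells, at least 3.41-fold lower than in Klrg1+ cells with Il10 or Gzmb and at least 3.23-fold lower than in cells with none of the 3 transcripts. Mmp9 lies at chr2:164940780-164955850 (plus strand, mm10).

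Of the S100, galectin and annexin list, 3 of 16 genes were lower and 1 higher against all other Foxp3+ cells, with a median of −0.25, a smaller share lower than among all measured genes. S100a4, a calcium-binding protein of motile cells that is also on the terminal effector list, stood at 1083 CPM in the members and at 1634, 1522 and 1609 in the other kinds, a ratio of −0.56 (−0.88 to −0.25) to all of them. S100a6 had a ratio of −0.41 (−0.66 to −0.17), and Lgals1, which encodes galectin-1, of −0.38 (−0.66 to −0.12). Ifngr1, the ligand-binding chain of the interferon gamma receptor, was at 925 CPM in the members and at 1538, 1480 and 1788 in the other kinds, and thus was lowest in the members. Maf, the factor that promotes Il10 transcription, stood at 1241 CPM in the members and at 1641, 1446 and 1860 in the other kinds. Its ratio was −0.42 (−0.73 to −0.13) to all other Foxp3+ cells and −0.22 (−0.58 to 0.13) to cells with none of the 3 transcripts. The RORgt and MAF list had 1 of 7 measured genes higher and 2 lower against all other Foxp3+ cells, with a median of −0.01. Maf was found in 28 of the 43 members with Gata3 and in 9 of the 14 without it.

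**Figure D3:**
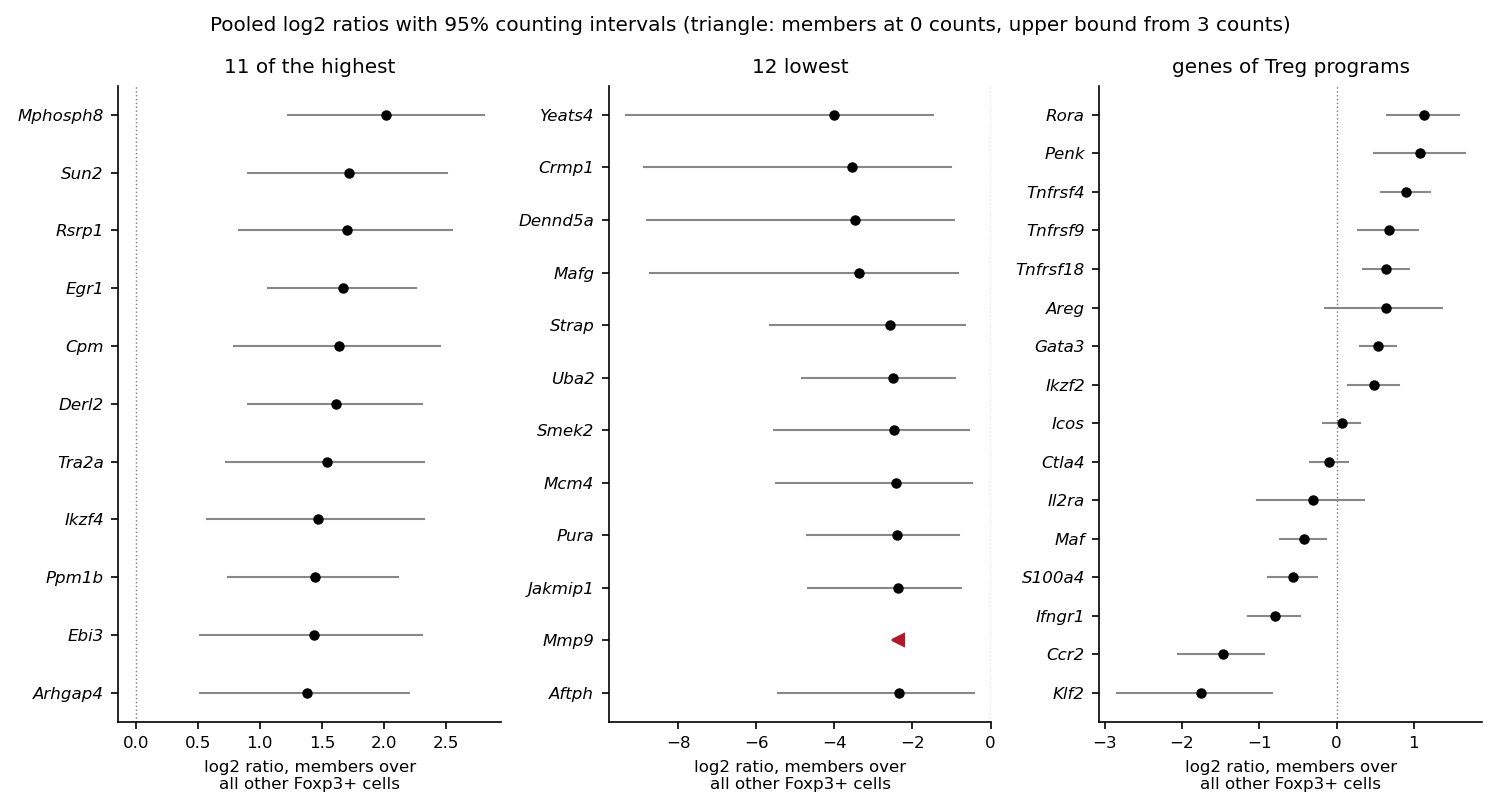
Log2 ratios of the members to all other Foxp3+ cells for 11 of the 12 highest genes, the 12 lowest genes and 16 genes of regulatory T cell programs. The horizontal axes give the log2 ratio, points are pooled ratios, lines are 95% counting intervals, and the triangle marks the bound for Mmp9, at 0 counts in the members. The higher genes shown lie between 1.38 and 2.02, and the lowest, with wide intervals from few counts, between −4.00 and −2.35.

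By the rule for naming genes, the 12 highest against all other Foxp3+ cells included Mphosph8, Sun2, Rsrp1, Egr1, Cpm, Derl2, Tra2a, Ikzf4, Ppm1b, Ebi3 and Arhgap4, with ratios from 2.02 to 1.38. Each of these 11 had 18 to 41 counts in the members. Mphosph8, a chromatin silencing protein, led with 27 counts in 8 members against 32 counts in 20 of the other 275 cells. Egr1, an immediate early transcription factor of receptor signalling, had 41 counts in 9 members, of which 17 lay in 1 cell, and its ratio of 1.67 became 0.34 with each gene counted at most once per cell. Tra2a, a splicing factor, had 23 counts in 6 members, and its ratio of 1.54 became 0.34 without the top cell of each side. Ppm1b, a protein phosphatase, was spread over 18 members, and its ratio was 1.44 as pooled and 1.43 when counted at most once per cell.

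The 12 lowest were Yeats4, Crmp1, Dennd5a, Mafg, Strap, Uba2, Smek2, Mcm4, Pura, Jakmip1, Mmp9 and Aftph. None held more than 3 counts in the members. Yeats4, which encodes a reader of histone acylation, had 1 count in the members and 77 counts in 31 of the other cells, a ratio of −4.00 (−9.32 to −1.48). Mcm4, a subunit of the replicative helicase, had 2 counts in the members and 51 in 28 other cells. The cell cycle list as a whole had 1 of 19 genes higher and 9 lower, with a median of −0.56, or −0.28 with each gene counted at most once per cell. Top2a, the topoisomerase of dividing cells, was at 0 in the members and held 46 counts in 13 of the other Foxp3+ cells. Its counterpart was H2afz, a histone variant, at 1139 CPM in the members and 714 in the others. Of genes of lipid and cholesterol synthesis, 7 of 10 were lower and 1 higher, with a median of −0.81. That median was −0.34 with each gene counted at most once per cell. It was −0.40 when members could hold up to 1 count of Il10 and of Gzmb. With thinned cells too few genes of the list were measured. Against Klrg1+ cells with Il10 or Gzmb, only 1 of its 22 genes was measured, and likewise against cells with none of the 3 transcripts. Srebf2, the regulator of cholesterol synthesis, had 13 counts in 9 members, a ratio of −0.83 (−1.78 to 0.00).

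Against the 84 Foxp3+ cells with no Klrg1, Il10 or Gzmb, which share the lack of both effector transcripts, the members stood higher across the tissue program. Of 1895 genes measured, 18.1% were at least 1.5-fold higher and 19.8% at least 1.5-fold lower, with a median of 0.00. The tissue program list had 11 of 15 genes higher and none lower, with a median of 0.94. Core regulatory T cell genes had 6 of 15 higher and 2 lower (median 0.39). Genes of T cell receptor signalling and the immediate early response had 8 of 22 higher and 1 lower (median 0.44). The members had the larger median depth here, with 1396 counts against 1156, and with cells thinned to 500 counts the 3 medians were 0.49, 0.71 and 0.38.

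From the receptor signalling list, 3 genes are given with values against cells with none of the 3 transcripts. Nfkbia, the inhibitor of NF-kB that NF-kB itself induces, stood at 3676 CPM in the members and 2001 in those cells, a ratio of 0.88 (0.63 to 1.12). Nfkbiz, a nuclear member of the same inhibitor family, had a ratio of 1.71 (0.84 to 2.65), with 39 counts in 22 members against 16 counts in 13 cells. Zfp36l1, an RNA-binding protein that shortens the life of cytokine messages, stood at 2515 CPM against 1076, a ratio of 1.22 (0.90 to 1.55). Against Klrg1+ cells with Il10 or Gzmb the same 3 genes had ratios of −0.02, −0.07 and 0.27. Ctla4, at 0.39 (0.06 to 0.71), and Icos, at 0.38 (0.08 to 0.69), were modestly higher than in cells with none of the 3 transcripts.

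The rule for naming genes required at least 50 counts over both sides. By it, the highest against cells with none of the 3 transcripts were Cd83, Nfkbiz, Psme1, Mxd4, Arhgef1, Tnfrsf9, Tnfrsf4 and Sri. Sparser genes could have larger ratios, such as Cpm at 3.30. Arhgef1, a guanine nucleotide exchange factor, was found in 31 of 57 members and 18 of 84 cells, a ratio of 1.60 (0.87 to 2.38). It was also higher than in Klrg1+ cells with Il10 or Gzmb, at 1.06 (0.45 to 1.67). The lowest by the same rule were Klf2, Gpr183, Tcp1, Tnfaip8, Sept6, Brd2, Dek and H2afy, from −2.21 to −1.55. Klf2 and Gpr183, both tied to lymphocyte traffic, led this group. The cell cycle list had 7 of 10 genes lower and 1 higher, with a median of −0.79. That median was 0.25 with each gene counted at most once per cell and 0.20 with thinned cells. It was −0.10 with each cell weighted equally and −0.13 with the deepest cells left out, which removed no member. The deepest cell with none of the 3 transcripts held 7500 counts, against 3339 in the deepest member. The part of any single cell in this median was not tested.

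Against the 87 Klrg1+ cells with Il10 or Gzmb, which share Foxp3 and Klrg1, the tissue program differed little. Of 2192 genes measured, 17.7% were at least 1.5-fold higher in the members and 20.1% at least 1.5-fold lower, with a median of −0.01. The tissue program list had 5 of 16 genes higher and 2 lower, with a median of 0.13, the TNF receptor list had 1 of 9 higher and 1 lower, and the receptor signalling list had 4 of 26 higher and 5 lower. The list of natural killer receptors and terminal effectors had none of 11 higher and 7 lower, with a median of −0.85. Nkg7, a granule membrane protein of cytotoxic cells, was at 78.9 CPM in the members and 211 in those cells, a ratio of −1.42 (−2.84 to −0.22). Lgals3, which encodes galectin-3, had 4 counts in the members and 29 in those cells, a ratio of −2.04 (−4.01 to −0.53), and Serpinb6a, a protease inhibitor, had 7 and 31. Lag3, an inhibitory receptor that accompanies IL-10 production, had 3 counts in 3 members and 20 counts in 13 of those cells, a ratio of −1.92 (−4.32 to −0.17). The members were the shallower side here, with medians of 1396 and 1697 counts, and with thinned cells the median of that list was −0.50.

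By the rule for naming genes, with its limit of 50 counts, the highest against Klrg1+ cells with Il10 or Gzmb ranged from 1.77 to 0.98. They were Ccm2, Tsn, Hdgf, Ppm1b, Rora, Arhgef1, Dnajb6 and Leprotl1. The lowest by the same rule were Parp4, Apbb1ip, Klf2, H2afy, Glrx, Vcp, Ctnnb1 and Anapc11, from −2.39 to −1.37. Hdgf, a growth factor of the nucleus, had a ratio of 1.44 (0.63 to 2.29) in this comparison and of 0.08 (−0.61 to 0.77) against cells with none of the 3 transcripts. H2afy, the gene of the histone macroH2A, had ratios of −1.62 (−2.65 to −0.72) and −1.55 (−2.60 to −0.61). Pkm, which encodes the glycolytic enzyme pyruvate kinase, had ratios of −0.83 (−1.45 to −0.24) and −0.95 (−1.59 to −0.35) in the same order. The comparisons share the members, so their ratios are not independent of each other.

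**Figure D4:**
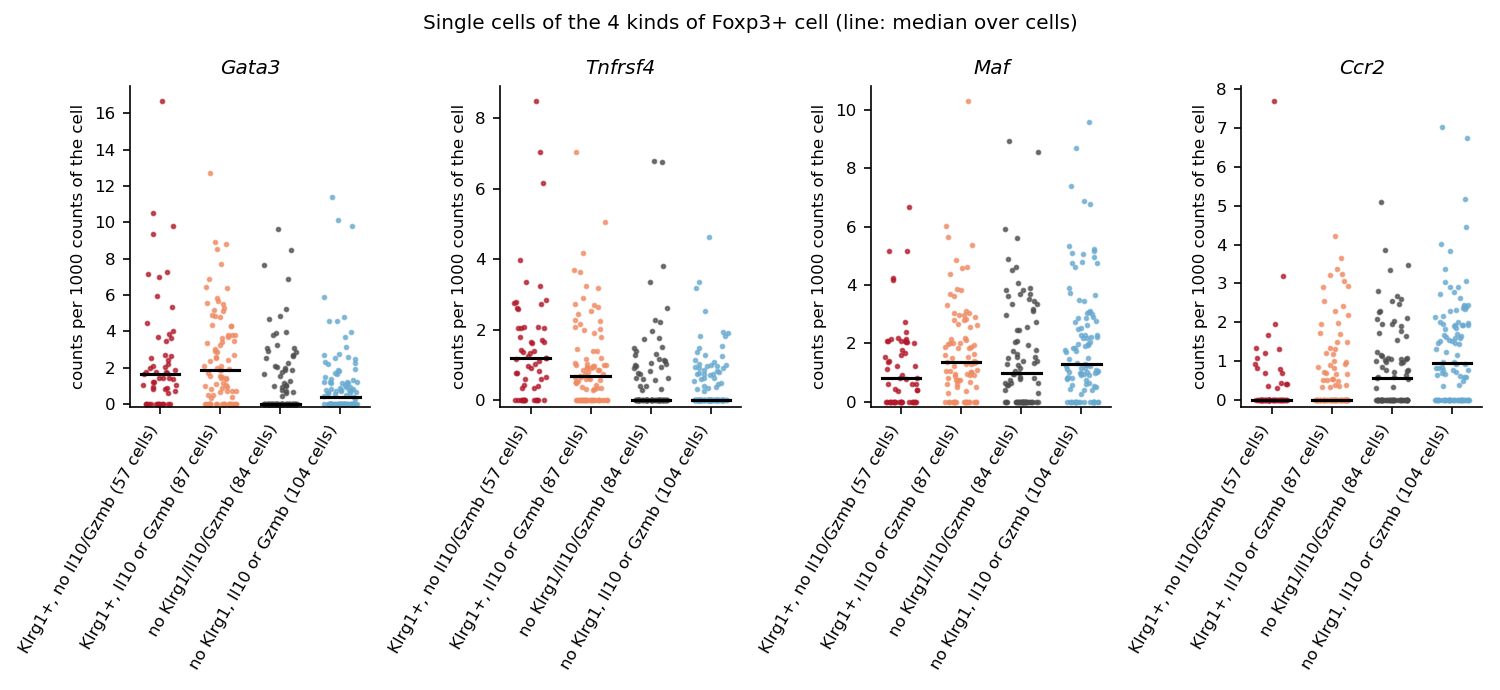
Single cells of the 4 kinds of Foxp3+ cell. The vertical axes give the counts of Gata3, Tnfrsf4, Maf and Ccr2 per 1000 counts of a cell, each point is a cell and each black line is the median over cells. The median member held 1.67 Gata3 and 1.20 Tnfrsf4 counts per 1000, and the median of Ccr2 was 0 in both kinds with Klrg1.

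Cells of each kind overlapped widely in every one of the 4 genes plotted by cell. Gata3 ranged from 0 to 16.7 counts per 1000 in the members, with quartiles of 0.598 and 3.44, and from 0 to 12.7 in Klrg1+ cells with Il10 or Gzmb, whose median was 1.84. In cells with none of the 3 transcripts the median of Gata3 was 0 and the highest cell held 9.64. The median of Tnfrsf4 was 1.20 per 1000 in the members, 0.690 in Klrg1+ cells with Il10 or Gzmb and 0 in both kinds without Klrg1. The median of Maf was 0.800 in the members, against 1.34, 0.972 and 1.30 in the other kinds. The highest Ccr2 value of any plotted cell, 7.70 per 1000, was in a member, although the upper quartile of the members was only 0.418.

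Members also differed among themselves. Gata3 was found in 43 and Ikzf2 in 36, with 30 members holding both and 8 holding neither. Of Gata3, Ikzf2, Tnfrsf4, Icos and Ctla4, 14 members held all 5, 23 held 4, 14 held 3, and every member held at least 1. Areg was found in 15 members and Il1rl1 in 9, and only 3 members held both. Of the 15 members with Areg, 13 also held Gata3 and 13 held Maf. Of the 10 members with Penk, 9 held Gata3 and 9 held Tnfrsf9. Il1rl1 went the other way. Gata3 was found in 5 of the 9 members with Il1rl1 and in 38 of the 48 without it. Ikzf2 was found in 4 of those 9 and 32 of those 48. Ccr2 also went the other way, found in 10 of the 43 members with Gata3 and in 8 of the 14 members without it. These counts describe cells of 1 table. Of the 29 members at or below the median depth, 23 held Gata3 and 7 held Ccr2, and of the 28 deeper members, 20 held Gata3 and 11 held Ccr2. Pooled Gata3 was 3049 CPM in the shallower members and 1927 CPM in the deeper ones.

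**Figure D5:**
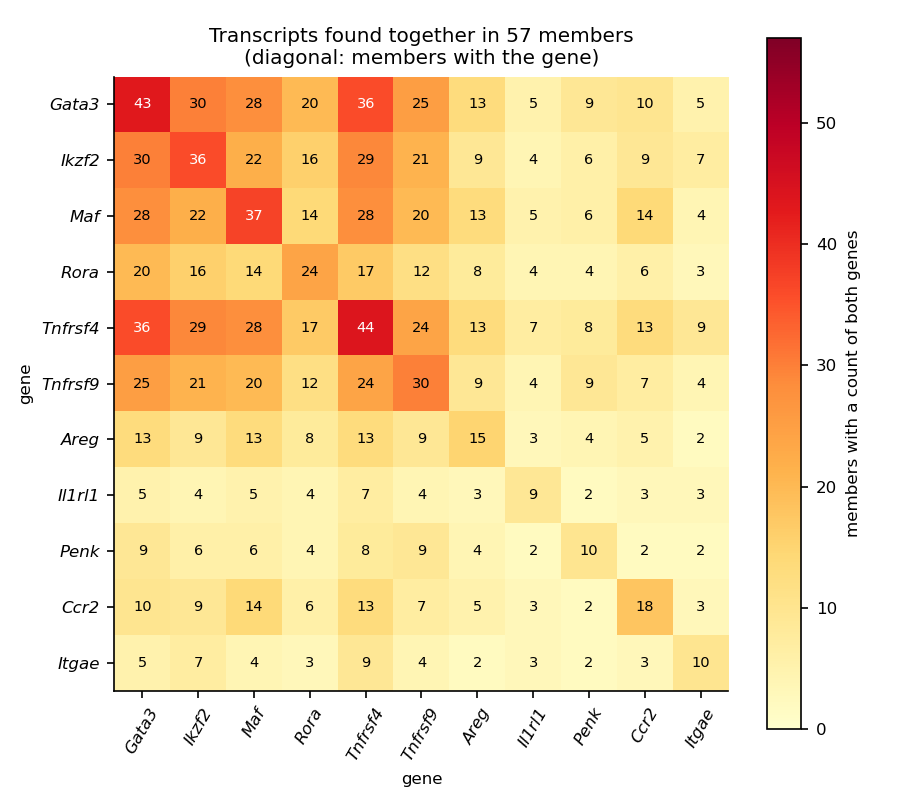
Genes found together in the 57 members. Each square gives the number of members with at least 1 count of both genes, and the diagonal the number with the gene. Gata3 and Tnfrsf4 are found together in 36 members, Gata3 and Ikzf2 in 30, and Areg and Il1rl1 in 3.

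The selection has a threshold at 1 count. Among members, 24 held exactly 1 Klrg1 count and 25 exactly 1 Foxp3 count. Pooled Gata3 was 2028 CPM in the 24 members with 1 Klrg1 count and 2433 in the 33 with more, while Ikzf2 was 1547 and 957 CPM and Tnfrsf4 was 1513 and 1225 CPM. Just outside the selection, 24 Foxp3+ Klrg1+ cells held exactly 1 count of Il10 and Gzmb together and 63 held more. Ccr2 stood at 522 CPM in those 24 cells and 867 in the 63, against 350 in the members. Mmp9 was found in 2 of the 24 and 10 of the 63, and Rora stood at 363 and 268 CPM. Gata3 stood at 2586 and 2314 CPM. Of barcodes just under the depth limit of 500 counts, with at least 400, 2 met the selection.

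The same Klrg1 contrast was measured in cells that the selection did not use, those with no count of Foxp3, Il10 or Gzmb. Of these, 91 held Klrg1 (median 1157 counts) and 476 did not (median 1203). Of 5733 genes measured, 18.8% were at least 1.5-fold higher in the cells with Klrg1 and 25.9% at least 1.5-fold lower. The tissue program list had 14 of 20 genes higher and 1 lower, with a median of 1.11. Core regulatory T cell genes had 13 of 17 higher and none lower, with a median of 1.37. Gata3 stood at 2554 CPM with Klrg1 and 1102 without it, a ratio of 1.21 (1.02 to 1.40). The same ratio was 1.83 (1.45 to 2.20) for Ikzf2, 2.10 (1.70 to 2.49) for Tnfrsf4, 2.35 (1.69 to 3.01) for Areg and 2.92 (1.97 to 3.91) for Penk. Ccr2, in contrast to its low level in the members, stood at 501 CPM with Klrg1 and 327 without it, and Mmp9 at 78.3 and 49.6 CPM. The 476 cells hold several kinds of T cell: genes of naive and circulating cells had 12 of 16 lower in the cells with Klrg1, and 8 of 8 epithelial genes were lower as well. The 91 cells may include regulatory T cells whose Foxp3 was missed, and 25 of the 57 members held exactly 1 Foxp3 count. The part of any of these cells in the ratios was not tested.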

How the data were processed

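The deposited table holds whole-number counts by barcode and gene symbol. The authors' tools named in the submitters' processing notes are TopHat2 and SAMtools, with the mm10 build and no versions. How reads were counted, whether molecular identifiers were collapsed, and how barcodes were chosen is not given in the sources used here. In all there were 1985 barcodes, 25724 gene symbols and 1690867 counts. Of the barcodes, 1071 had at least 500 counts, 1058 of those also had at least 200 genes, and 1050 also had under 20% mitochondrial counts and were kept. Doublets were not removed. Scrublet (scanpy 1.11.5) marked 9 of 1050 cells (0.857%), of which 2 were members.

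Barcodes name no sample, so the fit with sums per sample and edgeR planned for separable samples was not used. Counts were pooled per side as CPM, and log2 ratios have exact conditional 95% intervals (Python 3.11.15, scipy 1.17.1), which cover counting error only. The script for ratios and intervals was tested on simulated pooled counts drawn independently of each other. The simulation held no clumping of counts in single cells, so it does not show how the intervals behave under such clumping. Where a side held no count of a gene, 3 counts over the side were taken in its place, which gives a bound. Genes in lists entered with at least 20 counts over both sides. For shares, each cell was also thinned to 500 counts. Symbols were matched to GENCODE vM21 for coordinates (97.3% matched).

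The rule for naming genes took the 12 highest and 12 lowest ratios against all other Foxp3+ cells, and the 8 highest and 8 lowest in each of the other comparisons of Foxp3+ cells. Genes needed at least 50 counts, an interval that leaves out 0 and detection in at least 10% of the higher side. Up to 6 genes of each list and fixed markers were added. Some genes that this rule took are not reported here. Not eligible were genes of the selection, predicted genes, and those of ribosomes, mitochondria, immunoglobulins and T cell receptors. The members, the 30 gene lists and the comparisons were chosen with earlier results of these data known, so a list's direction is not independent support. Alternatives changed the depth, mitochondrial and count limits, the selection, the weighting of cells and the totals, or left out Scrublet doublets. Leaving out cells with H2-Aa, and leaving out the top cell of each side, were added after seeing the data.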

Additional observations from a re-analysis of the deposited data

How the results depend on the processing

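Counts of genes past 1.5-fold moved with the data used. Against all other Foxp3+ cells, 734 genes were higher and 1060 lower. These were 391 and 574 with each gene counted at most once per cell, 238 and 354 with cells thinned to 500 counts, 184 and 303 for genes with at least 50 counts, and 1338 and 1609 with at least 10. Against Klrg1+ cells with Il10 or Gzmb, 388 and 440 became 108 and 157, 82 and 90, 50 and 82, and 933 and 1065 in the same order, and 239 and 290 where Klrg1 was required at 2 counts, which left 33 members. Against cells with none of the 3 transcripts, 343 and 375 became 111 and 97, 76 and 95, 72 and 66, and 859 and 970. Fewer or more genes are measured under each of these settings. Of 5264 alternative values of single genes and list medians, 5024 stayed close to the reported value, 224 moved and 16 changed sign. Close meant inside the counting interval for a gene and within a fixed margin for a list median. Part of the 5024 could not have moved. The limits of 10 and 50 counts left the ratios of single genes as reported and acted only on lists and gene counts. Leaving out the deepest cells removed no member and none of the Klrg1+ cells with Il10 or Gzmb, so that comparison stayed the same. The 5024 is therefore not a measure of how stable the values are. A sign change was counted only for a reported ratio of at least 1.5-fold. Smaller ratios that crossed 0, such as that of Ikzf4 above, are not among the 16. These 16 sign changes were as follows, and their cause was not tested. Counted at most once per cell, Egr1 (−0.37), Tra2a (−0.34) and Psme1 (−0.00609) changed sign against Klrg1+ cells with Il10 or Gzmb, and Tra2a (−0.30), Parp4 (0.12) and the cell cycle list (0.25) against cells with none of the 3 transcripts. Thinned, Tsn was at −1.0 against all other Foxp3+ cells, and against cells with none of the 3 transcripts Tsn was at −1.66, Tra2a at −0.44 and the cell cycle list at 0.20. Without the top cell of each side, Tra2a was at −0.12 there. With up to 1 count of Il10 and of Gzmb allowed, the reference kinds took the same limit. Lgals3 was then at 0.16 against all other Foxp3+ cells. Against Klrg1+ cells with more than 1 count of Il10 or of Gzmb, Crmp1 was at 0.00195 and Top2a at 0.32. Against cells with no Klrg1 and at most 1 count of Il10 and of Gzmb, Parp4 was at 0.90 and Apbb1ip at 0.10. Leaving out Scrublet doublets moved 1 of 359 values, and leaving out cells with H2-Aa moved 2 of 358. No paired analysis was possible because barcodes name no sample, and leaving out each sample in turn could not be run for the same reason. With 57 members, a gene at 0 can still be present at up to 33.8 CPM.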
